A study of Homo sapiens with 4 samples.

Results

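The STEAP metalloreductases are a family of membrane proteins with 4 members, STEAP1, STEAP2, STEAP3 and STEAP4, which were taken by gene symbol from the 17791 genes of the count table. Bulk RNA sequencing was done on engineered prostate cancer tissues, in which cells are encapsulated in a poly(ethylene glycol)-fibrinogen hydrogel, after 15 days of culture. Each cancer line, PC-3 or LNCaP, was grown alone (monoculture) and together with BJ-5ta fibroblasts at 5 cancer cells per fibroblast (coculture), which gives 4 libraries with 1 library per group. PC-3 is a bone metastasis line that grows without androgen and is labelled as the castration-resistant model (CRPC-ne, where the labels do not spell out the ending), LNCaP is a lymph node metastasis line labelled as the androgen-dependent model, and BJ-5ta is a line of normal human fibroblasts immortalised with telomerase. No treatment was given to any group. The growth protocol describes the medium of the PC-3 tissues, so that of the LNCaP tissues was not known, and whether RNA of several tissues was pooled is not stated. With 1 library per group, no difference was tested, and the spread between tissues was not seen.

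STEAP2, STEAP3 and STEAP4 pass electrons from NADPH in the cytosol through FAD and a heme in the membrane to ferric iron or cupric copper, which cells take up after reduction. STEAP1 has the heme-binding membrane part but lacks the NADPH-binding domain of the other members, and it can assemble with them. STEAP1 was first described as a surface antigen of prostate tumours and is a target of therapies directed at the cell surface. STEAP2 is also abundant in prostate epithelium, STEAP3 reduces iron released from transferrin in endosomes, and STEAP4 is known for its induction by inflammatory cytokines.

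On the GRCh38.p14 assembly of RefSeq, 3 members lie on chromosome 7. STEAP4 is at chr7:88270892-88306894, on the minus strand, STEAP1 at chr7:90154469-90164827, on the plus strand, and STEAP2 at chr7:90211740-90243408, on the plus strand and 46912 bases beyond STEAP1. STEAP3 lies alone on chromosome 2, at chr2:119223834-119265652, on the plus strand. The 250 bases before the first annotated start are printed for each member from RefSeq, because the members differed between the cell lines in opposite directions. STEAP1 is shown with its paralog STEAP1B (chr7:22419444-22500188, minus strand), whose window is near-identical. These bases lie before the annotated starts, so their likeness does not bear on how reads are assigned. Capitals in this pair mark the bases that differ. The STEAP1 window is chr7:90154219-90154468 and the STEAP1B window, printed on its minus strand, is chr7:22500189-22500438.
STEAP1: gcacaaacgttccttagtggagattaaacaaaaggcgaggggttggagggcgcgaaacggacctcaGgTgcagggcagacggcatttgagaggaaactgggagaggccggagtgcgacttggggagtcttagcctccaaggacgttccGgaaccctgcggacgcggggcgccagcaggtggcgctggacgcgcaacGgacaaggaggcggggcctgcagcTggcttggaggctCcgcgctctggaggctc
STEAP1B: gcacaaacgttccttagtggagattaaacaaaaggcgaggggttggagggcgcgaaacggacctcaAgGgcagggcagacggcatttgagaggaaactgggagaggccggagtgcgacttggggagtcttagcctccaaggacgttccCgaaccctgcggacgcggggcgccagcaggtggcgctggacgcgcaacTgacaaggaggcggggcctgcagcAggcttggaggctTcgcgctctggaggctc
These windows were identical at 244 of 250 bases (97.6%), and the substitutions from STEAP1 to STEAP1B, counted from 1 at the 5′ end, were G67A, T69G, G149C, G197T, T221A and C234T.

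In the STEAP2 window (chr7:90211490-90211739), capitals mark the 104 bases that separate the start of STEAP2 from that of its antisense gene STEAP2-AS1, which runs in the opposite direction.
STEAP2: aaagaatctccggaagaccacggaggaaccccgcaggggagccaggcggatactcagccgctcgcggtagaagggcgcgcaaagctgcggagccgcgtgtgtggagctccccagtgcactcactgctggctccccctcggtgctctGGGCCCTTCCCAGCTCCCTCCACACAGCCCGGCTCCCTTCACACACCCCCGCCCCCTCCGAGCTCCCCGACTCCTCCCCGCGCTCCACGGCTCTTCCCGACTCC
In the windows of STEAP3 (chr2:119223584-119223833) and STEAP4 (chr7:88306895-88307144, minus strand), capitals mark a GC box, GGGCGG on either strand.
STEAP3: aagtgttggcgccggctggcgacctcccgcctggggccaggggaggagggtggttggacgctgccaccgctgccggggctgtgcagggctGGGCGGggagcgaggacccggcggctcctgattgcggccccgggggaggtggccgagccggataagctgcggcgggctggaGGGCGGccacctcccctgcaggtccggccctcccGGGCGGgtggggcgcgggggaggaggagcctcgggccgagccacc
STEAP4: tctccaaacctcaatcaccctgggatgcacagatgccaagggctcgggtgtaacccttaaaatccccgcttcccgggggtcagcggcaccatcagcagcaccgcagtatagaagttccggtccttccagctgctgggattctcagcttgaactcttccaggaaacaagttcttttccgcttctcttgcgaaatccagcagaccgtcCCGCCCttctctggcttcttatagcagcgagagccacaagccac
The GC box occurred 3 times in the STEAP3 window, once each in the STEAP2 and STEAP4 windows and not in the STEAP1 window, against 42.6% of 35116 RefSeq promoter windows of the same length that hold at least 1. The letters TATAAA (10.7% of all windows) and CCAAT (32.0% of all windows), searched on both strands, were in none of the 4. STEAP2 has a second annotated start, and the 250 bases before it (chr7:90213570-90213819, not printed) hold TATAAA once, CCAAT 2 times and TGTTTAC, a forkhead core motif found in 2.98% of all windows, once, with 32.8% G and C. G and C made up 64.4% of the STEAP1 window, 69.6% of the STEAP2 window, 78.4% of the STEAP3 window and 55.6% of the STEAP4 window, against a median of 58.0%. TGTTTAC was in none of the 4 windows before the first starts. AGAACA, an androgen receptor half-site found in 12.4% of all windows, was in none of them and not before the second STEAP2 start. A match or its absence describes the letters of a window and is no measure of binding.

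STEAP2 and STEAP1 were abundant in LNCaP tissues and low in PC-3 tissues, STEAP3 had the opposite order, and STEAP4 was low in all 4 libraries. Libraries held between 15520243 and 15865690 counts. Levels below are CPM (counts per 1000000) after TMM scaling, which changed library sizes by less than 1 percent. As a check of the labels, KLK2 and KLK3 had 0 counts in both PC-3 libraries, and KLK3 had 60226 and 74134 counts in the LNCaP monoculture and coculture. They belong to a list of 8 LNCaP markers, of which 6 were at least 2-fold higher in LNCaP than in PC-3 monoculture and 2 within 2-fold. PC-3 was not free of these markers, with TMPRSS2 at 458 CPM in the PC-3 monoculture and 1346 CPM in the LNCaP monoculture. Of 8 PC-3 markers, all detected in PC-3, 7 were at least 2-fold lower in LNCaP monoculture, with EGFR as the exception. Each fold carries a 95% interval that covers counting error only.

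STEAP2, the metalloreductase of prostate epithelium, was at 27.6 CPM in the PC-3 monoculture, 27.0 CPM in the PC-3 coculture, 1048 CPM in the LNCaP monoculture and 1321 CPM in the LNCaP coculture. Both LNCaP libraries stood far above both PC-3 libraries. The level was 38.0-fold higher in LNCaP than in PC-3 monoculture (34.6 to 41.9) and 49.0-fold higher in coculture (44.5 to 54.0). By log2 fold STEAP2 ranked 262 from the top of 15160 measured genes in the first of these comparisons and 183 of 15155 in the second.

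STEAP1, the family member without its own NADPH-binding domain, was at 13.5 CPM in the PC-3 monoculture, 13.8 CPM in the PC-3 coculture, 248 CPM in the LNCaP monoculture and 274 CPM in the LNCaP coculture. As with STEAP2, both LNCaP libraries were high and both PC-3 libraries low. STEAP1 was 18.3-fold higher in LNCaP than in PC-3 monoculture (15.9 to 21.1) and 19.8-fold higher in coculture (17.2 to 22.7). The paralog STEAP1B had 1, 0, 7 and 11 counts in PC-3 monoculture, PC-3 coculture, LNCaP monoculture and LNCaP coculture. Of the 1622 windows of 75 bases in STEAP1 transcripts, 220 (13.6%) also occur in STEAP1B, so some reads could belong to either gene. No window of this length was shared between the 4 members.

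STEAP3, the endosomal ferrireductase, was at 59.1 CPM in the PC-3 monoculture, 62.8 CPM in the PC-3 coculture, 16.6 CPM in the LNCaP monoculture and 18.2 CPM in the LNCaP coculture. Here the PC-3 libraries were the high ones. The level was 3.56-fold lower in LNCaP than in PC-3 monoculture (3.11 to 4.10) and 3.44-fold lower in coculture (3.01 to 3.94). STEAP3-AS1 overlaps STEAP3 and had between 6 and 15 counts in the 4 libraries. The library kit does not mark the strand, so reads of the overlap cannot be told apart.

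STEAP4, the cytokine-induced member, was at 2.00 CPM (32 counts) in the PC-3 monoculture, 2.87 CPM (45 counts) in the PC-3 coculture, 0.507 CPM (8 counts) in the LNCaP monoculture and 1.87 CPM (29 counts) in the LNCaP coculture. The LNCaP monoculture was the low library, and the LNCaP coculture was close to the PC-3 monoculture. STEAP4 was 3.96-fold lower in LNCaP than in PC-3 monoculture, with a wide interval from 1.79 to 9.94. In coculture the LNCaP level was 0.651 times that of PC-3, and the interval from 0.394 to 1.06 includes equal levels.

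In LNCaP against PC-3 monoculture, 2 of the 4 members were at least 2-fold higher (STEAP1 and STEAP2) and 2 at least 2-fold lower (STEAP3 and STEAP4). STEAP4 reached the 1 CPM minimum of that comparison only in PC-3. Of all 15160 genes measured in that comparison, 22.1% were at least 2-fold higher and 23.6% at least 2-fold lower. In coculture 2 members were higher and 1 lower (STEAP3), where 20.7% of 15155 genes were higher and 23.6% lower. The cell lines thus differed in a large share of genes, and the number of members past 2-fold is not by itself a result about the family. The median log2 fold of the 4 members, 1.22 in monoculture and 1.85 in coculture against 0.04 and 0.01 over all measured genes, averages over members of opposite direction.

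**Figure D1:**
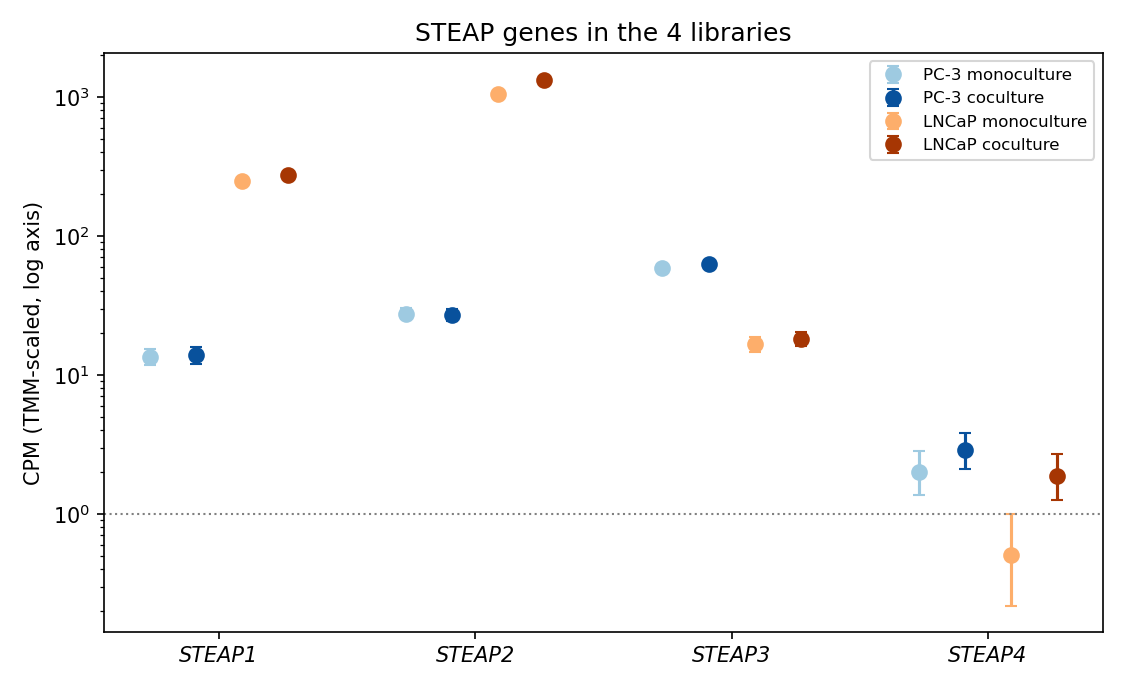
Level of each STEAP gene in the 4 libraries, as CPM on a log axis, with 95% intervals for counting error. STEAP1 and STEAP2 lie above 200 CPM in both LNCaP libraries and below 30 CPM in both PC-3 libraries, STEAP3 is higher in PC-3, and STEAP4 stays below 3 CPM.

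The summed CPM of the 4 members was 102 in the PC-3 monoculture, 107 in the PC-3 coculture, 1313 in the LNCaP monoculture and 1615 in the LNCaP coculture. To compare members with each other, counts were divided by the length of the longest transcript of each gene. On this length-scaled level STEAP3 led the family in PC-3, with 49.0% of the family total in monoculture and 50.1% in coculture. STEAP1 made up 36.4% and 35.9%, STEAP2 13.8% and 13.1%, and STEAP4 0.709% and 0.978% in the same libraries. In LNCaP, STEAP1 and STEAP2 together made up nearly the whole family: STEAP1 had 55.2% in monoculture and 52.0% in coculture, and STEAP2 43.6% and 46.9%. STEAP3 made up 1.14% and 1.07% of the LNCaP family total, and STEAP4 to 0.0149% and 0.0467%.

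The order of STEAP1 and STEAP2 depends on the transcript assumed, because the 9 protein-coding transcripts of STEAP2 run from 579 to 7033 bases. With the median protein-coding transcript length instead, STEAP2 led in LNCaP with 70.5% of the family in monoculture and 73.1% in coculture, while STEAP3 still led in PC-3 with 45.7% and 46.8%. The ratio of counts needs no length when it is followed across libraries, provided they use the same transcripts. It was 2.04 STEAP2 counts per STEAP1 count in the PC-3 monoculture (1.73 to 2.41), 1.95 in the PC-3 coculture (1.65 to 2.31), 4.23 in the LNCaP monoculture (4.09 to 4.39) and 4.83 in the LNCaP coculture (4.67 to 4.99). The excess in LNCaP was thus larger for STEAP2 than for STEAP1, and the intervals of the LNCaP libraries did not overlap each other.

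Among 16635 genes with a transcript length, STEAP1 ranked 214 from the top by length-scaled level in the LNCaP monoculture and 176 in the LNCaP coculture, but 5987 and 5890 in the corresponding PC-3 libraries. STEAP2 ranked 288 and 199 in LNCaP and 9380 and 9490 in PC-3. STEAP3 ranked higher in PC-3, at 4800 and 4570, than in LNCaP, at 9270 and 8959. STEAP4 ranked between 13813 and 14617 in the 4 libraries.

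**Figure D2:**
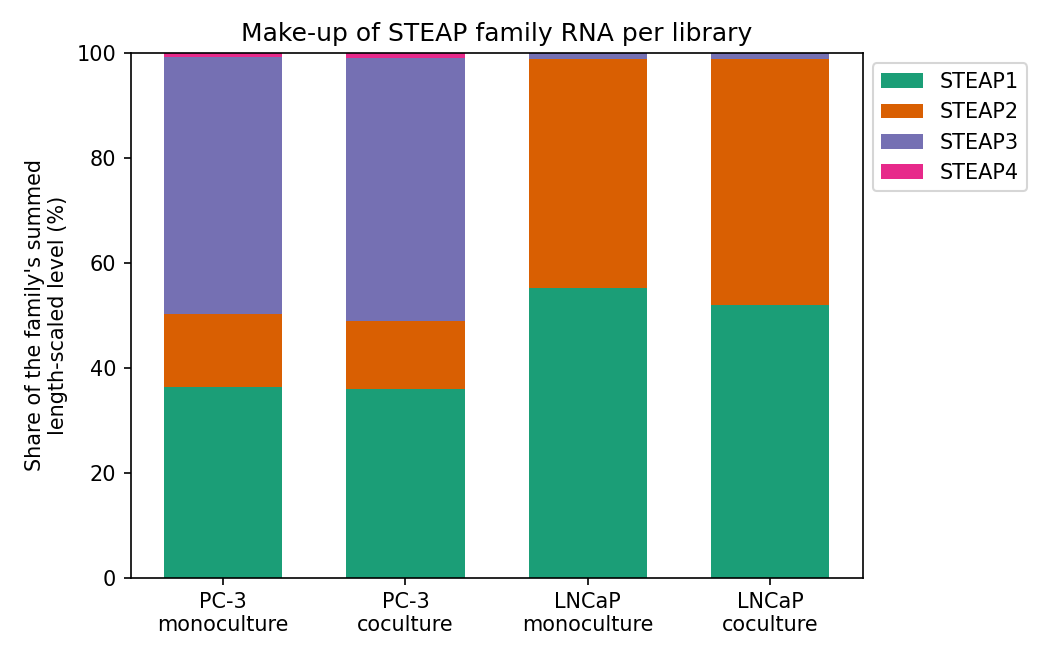
Share of the family total taken by each STEAP gene in the 4 libraries, in percent of the summed length-scaled level with the longest transcript. STEAP3 is the leading member in PC-3, whereas STEAP1 and STEAP2 fill almost all of the LNCaP bars.

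Inclusion of fibroblasts was then examined within each line. In PC-3, no member differed by 2-fold. STEAP1 was 1.02-fold (0.844 to 1.24), STEAP2 0.979-fold (0.855 to 1.12), STEAP3 1.06-fold (0.970 to 1.16) and STEAP4 1.43-fold (0.890 to 2.33) of the monoculture level, and each interval includes no difference. Of 14417 measured genes, 2.22% were at least 2-fold higher and 1.01% at least 2-fold lower in the PC-3 coculture. The median log2 fold was 0.06 over the members and 0.00 over all measured genes.

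In LNCaP, STEAP4 was the 1 member past 2-fold, at 3.69-fold of the monoculture level (1.65 to 9.34), a difference of 1.36 CPM (0.597 to 2.13). It ranked 439 from the top of 14119 measured genes, of which 4.56% were at least 2-fold higher and 3.03% at least 2-fold lower. STEAP4 was under the 1 CPM minimum in the LNCaP monoculture (8 counts), so it counted as measured only through the coculture, where it was higher. STEAP2 was 1.26-fold higher (1.24 to 1.29), STEAP1 1.10-fold (1.06 to 1.15), and STEAP3 1.10-fold with an interval that includes no difference (0.926 to 1.31). The median log2 fold was 0.24 over the members and 0.00 over all measured genes. A coculture holds both cell types, and in bulk RNA fewer cells of a type and less RNA per cell cannot be told apart.

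Marker levels are given beside these folds, and their part in the folds of STEAP1 and STEAP2 was not tested. None of 14 epithelial markers passed 2-fold in either coculture. Their summed level was 4040 CPM in the LNCaP monoculture and 4613 CPM in the LNCaP coculture, and 5676 and 6032 CPM in the PC-3 libraries; all 14 were detected in every library. Scaled to that sum, the LNCaP coculture fold was 1.10 for STEAP2 and 0.968 for STEAP1, so that the direction of STEAP1 turned while STEAP2 stayed higher; STEAP3 was 0.963 and STEAP4 3.23 on that scale. In PC-3 the same scaling gave 0.963 for STEAP1, 0.921 for STEAP2, 0.999 for STEAP3 and 1.35 for STEAP4. The summed level of 18 fibroblast markers was 33.4 CPM in the LNCaP monoculture, with 8 at 0, and 1278 CPM in the coculture, with POSTN at 0. In PC-3 it was 555 CPM in monoculture, with 4 at 0, and 1245 CPM in coculture, with none at 0. The STEAP4 difference between coculture and monoculture was 0.867 CPM in PC-3 (-0.222 to 1.96), beside 1.36 CPM in LNCaP. No library of fibroblasts alone was used, and the part of the fibroblasts in the STEAP4 difference was not tested.

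The coculture folds of the lines were compared as the difference of log2 folds, LNCaP minus PC-3. For STEAP2 it was 0.36 (0.17 to 0.56), from log2 folds of 0.33 in LNCaP and -0.03 in PC-3, and its counting interval excludes 0. For STEAP4 it was 1.16 (-0.05 to 2.37), for STEAP1 0.11 (-0.17 to 0.39) and for STEAP3 0.05 (-0.22 to 0.32), and these intervals include 0. The intervals hold no spread between tissues.

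**Figure D3:**
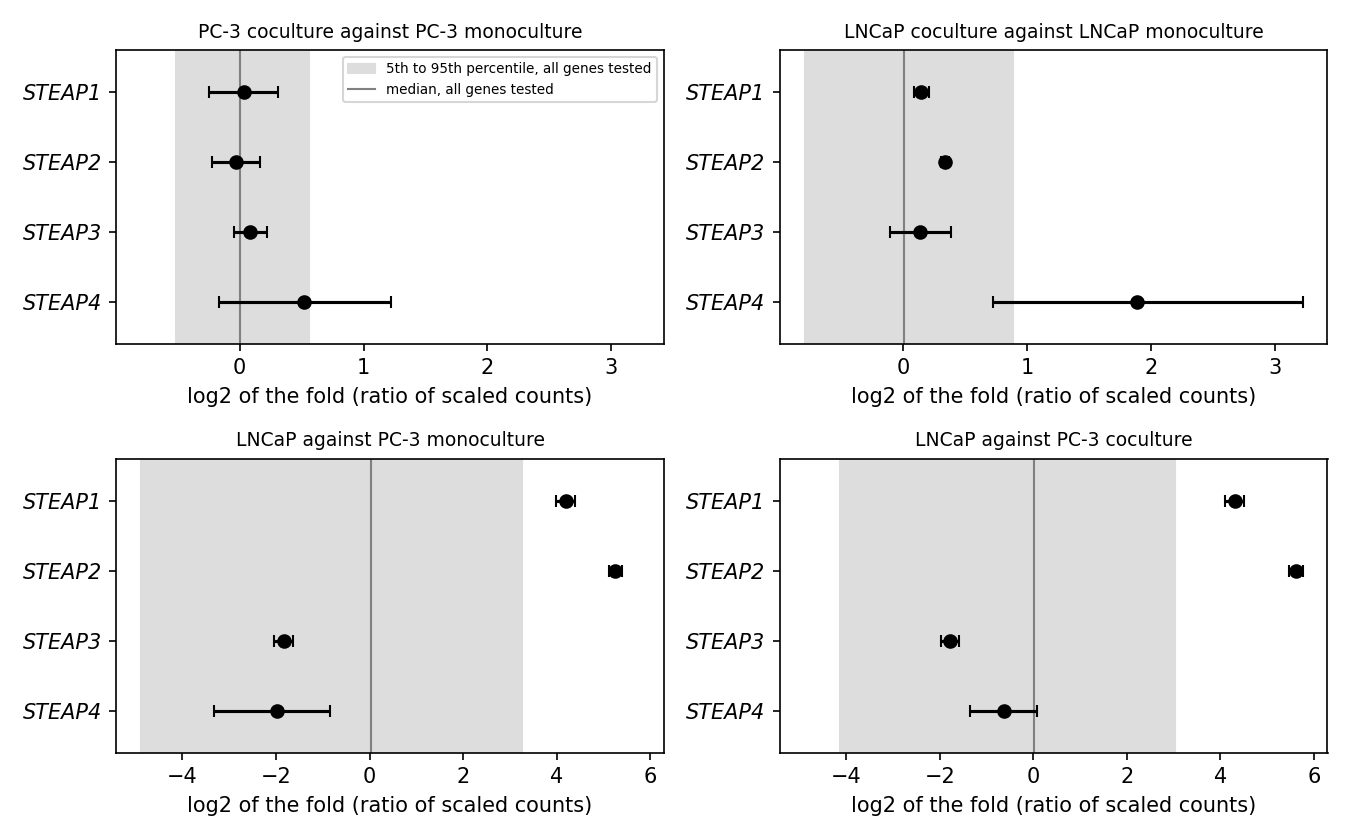
Fold of each STEAP gene in the 4 comparisons, on a log2 axis with 95% intervals for counting error. Shading covers all measured genes from the 5th to the 95th percentile, and the grey line is their median. The cell line comparisons of STEAP1 and STEAP2 lie far to the higher side, and of the coculture comparisons STEAP4 in LNCaP has both the highest fold and the widest interval.

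The chromosomal neighbours of the members were read next. Around STEAP4, STEAP1 and STEAP2, the nearest genes of the count table gave 9 measured genes, not all of them close by. SLC25A40 lies 394532 bases from STEAP4 and CDK14 352913 bases beyond STEAP2. Of the 9, 7 were at least 2-fold higher in LNCaP than in PC-3 monoculture and 0 at least 2-fold lower. The median log2 fold of the 9 was 1.74. The 7 and this median include FAM237B, at 0 CPM in the PC-3 and 2.34 CPM in the LNCaP monoculture. It was measured only through LNCaP, and it is not separate from CFAP69, in whose span it lies. Over 754 measured genes of chromosome 7, 17.2% were higher and 27.5% lower. CFAP69, a cilia and flagella gene that starts 1766 bases beyond STEAP2, was at 1.44 CPM in the PC-3 and 85.2 CPM in the LNCaP monoculture, 59.1-fold higher (39.2 to 93.6). Farther along, the tight junction gene CLDN12 was at 49.4 and 277 CPM, the kinase gene CDK14 at 21.1 and 70.7 CPM, and GTPBP10 at 28.8 and 66.6 CPM in PC-3 and LNCaP monoculture. On the STEAP4 side ADAM22 was at 6.01 and 23.5 CPM and SLC25A40 at 14.3 and 42.6 CPM. SRI, the listed gene nearest to STEAP4, was at 45.9 and 37.3 CPM, 0.812 times the PC-3 level (0.728 to 0.907). DBF4, at 9.90 and 14.5 CPM, was within 2-fold. STEAP4 itself, at 2.00 and 0.507 CPM, was lower in LNCaP. SRI was within 2-fold, and between the cocultures its LNCaP level was 1.09 times that of PC-3 (0.964 to 1.23).

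In the LNCaP coculture the neighbours of STEAP2 differed among themselves: CFAP69, at 64.5 CPM, was below its monoculture level, whereas CLDN12, at 341 CPM, was above it, as was STEAP2. FAM237B lies within the span of CFAP69 and its reads are uncertain. STEAP2-AS1, whose span includes STEAP1, had 1, 2, 2 and 6 counts in PC-3 monoculture, PC-3 coculture, LNCaP monoculture and LNCaP coculture, although its start is 104 bases from that of STEAP2. Of the 9 measured neighbours of STEAP3, 2 were higher and 1 lower in LNCaP monoculture, with a median log2 fold of 0.21, against 13.6% higher and 31.9% lower over chromosome 2. The lower one was EN1, a homeobox gene, at 17.0 CPM in the PC-3 monoculture and 0 counts in the LNCaP monoculture.

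**Figure D4:**
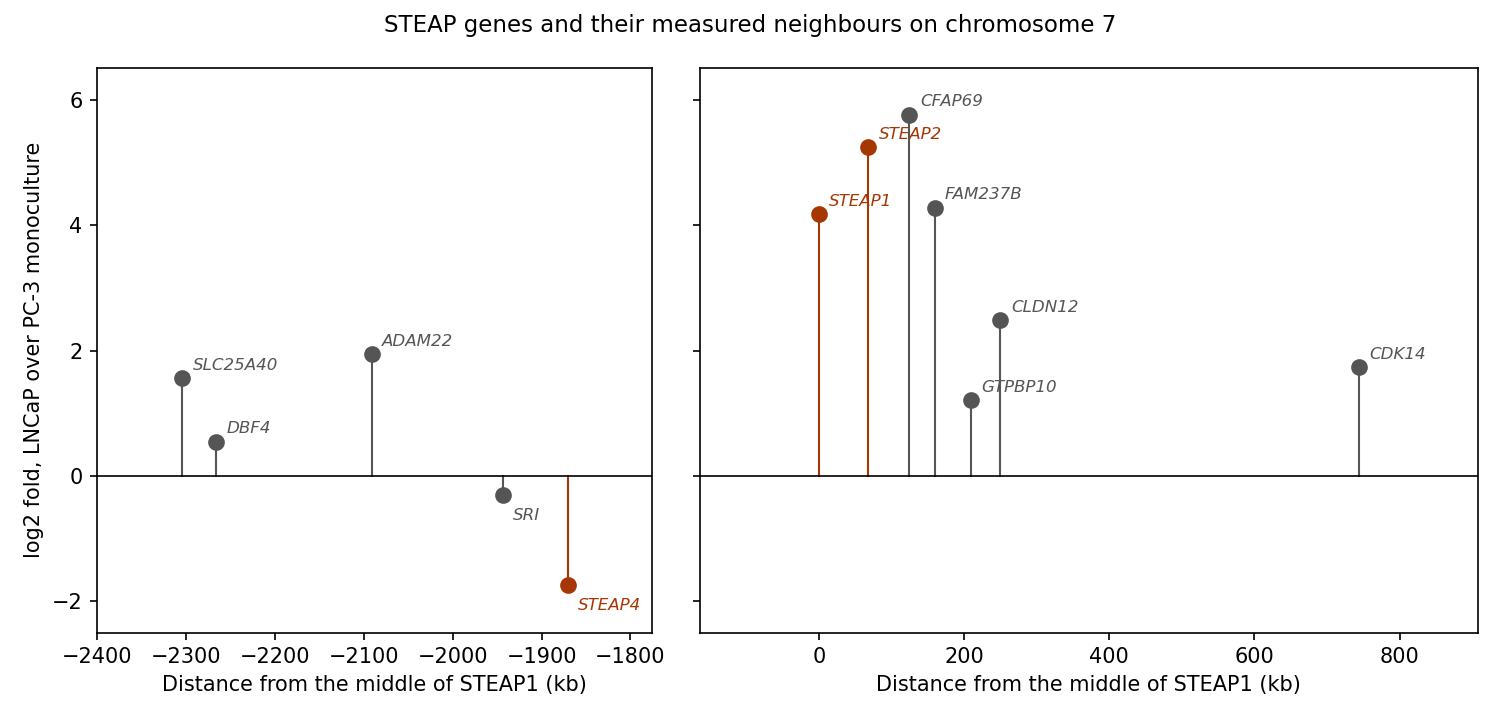
Log2 fold of LNCaP against PC-3 monoculture for the genes around the chromosome 7 members, by distance from the middle of STEAP1 in kilobases, in 2 panels that leave out the stretch between them. STEAP1, STEAP2, CFAP69 and FAM237B lie above 4, and STEAP4 lies below 0. Of the neighbours only SRI also lies below 0, and it is within 2-fold.

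Gene groups chosen around the family were described by counts, which are read against the shares of all measured genes. These were 22.1% higher and 23.6% lower in LNCaP monoculture, 2.22% higher in the PC-3 coculture and 4.56% higher in the LNCaP coculture. A count near these shares, such as 4 of 20 higher between the lines or 1 of 25 in coculture, is no result about the group. Of 21 measured androgen-regulated genes, 14 were at least 2-fold higher in LNCaP than in PC-3 monoculture and 2 lower (HPGD and NDRG1), with a median log2 fold of 3.04. In coculture none of 16 measured passed 2-fold in PC-3 (median 0.00) and none of 21 in LNCaP (median 0.16). KLK3, which encodes prostate-specific antigen, was 1.25-fold higher in the LNCaP coculture (1.24 to 1.27) and TMPRSS2, a membrane protease, 1.34-fold (1.32 to 1.36), beside 1.26-fold for STEAP2.

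Iron genes moved in both directions between the lines: of 25 measured, 9 were higher and 11 lower in LNCaP monoculture, with a median log2 fold of 0.18. The transferrin receptor TFRC was at 559 CPM in PC-3 and 249 CPM in LNCaP monoculture, 2.24-fold lower (2.16 to 2.33). The ferritin heavy chain FTH1, which stores iron, was 4.19-fold lower (4.14 to 4.24), and the light chain FTL 2.01-fold lower (1.95 to 2.08). SLC11A2, the transporter that carries ferrous iron after its reduction, was at 77.6 CPM in PC-3 and 90.7 CPM in LNCaP. TFRC, FTH1 and FTL thus had the direction of STEAP3 between the monocultures, whereas the 9 higher genes had the opposite one. Between the cocultures, 12 of 27 measured iron genes were higher in LNCaP and 6 lower (median 0.37). The shares of all measured genes there were 20.7% and 23.6%. FTH1 was 2.90-fold lower in that comparison, while TFRC, 1.79-fold lower, and FTL, 1.35-fold lower, were within 2-fold. In coculture 1 iron gene passed 2-fold in PC-3 (HFE, of 24 measured, median -0.02) and 1 in LNCaP (HEPH, of 25 measured, median 0.16).

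Of 19 copper genes, 1 was higher and 3 lower in LNCaP monoculture (median -0.06), none passed 2-fold in the PC-3 coculture (median -0.08), and LOX and PAM were higher in the LNCaP coculture (median 0.09). PAM, a copper enzyme that amidates peptides, was at 4.81 CPM in the LNCaP monoculture and 30.3 CPM in the coculture. Among relatives of the family, the other ferrireductases and NADPH oxidases, 0 of 9 measured were higher and 4 lower in LNCaP monoculture (median -0.62). CYBRD1, a plasma membrane ferrireductase, had 160 counts in the PC-3 monoculture, 202 in the PC-3 coculture, 2 in the LNCaP monoculture and 186 in the LNCaP coculture, so the LNCaP monoculture was the low library, as for STEAP4. The ratio of the LNCaP libraries was 94.7, with an interval from 25.8 to 788 that reflects the 2 counts. CYBA, a subunit of the NADPH oxidases, was the other relative past 2-fold in the LNCaP coculture (2 of 8, median 0.08) and the 1 past it in the PC-3 coculture (1 of 10, median 0.25).

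Of a list of inflammatory signalling genes, which holds cytokines, their signal transducers and target genes, 4 of 20 measured were higher and 9 lower in LNCaP monoculture (median -0.72), the lower ones including CXCL8, IL1B and SOCS3. In the LNCaP coculture 2 of 16 were higher (IL1B and SOCS3, median 0.20). In the PC-3 coculture 3 of 22 were higher (CCL2, IL1B and STAT3, median 0.25). These numbers depend on the CPM minimum. For LNCaP the number was 0 with a minimum of 5 CPM and 6 with no minimum, and for PC-3 it was 1 and 4. STAT3 counts in PC-3 tissues were 0 without fibroblasts and 42 (2.68 CPM) with them. The part of the fibroblasts in these counts was not tested.

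Of 13 surface antigens of prostate cancer used as targets beside STEAP1, 6 were higher and 4 lower in LNCaP monoculture (median 0.48). FOLH1, which encodes prostate-specific membrane antigen, was at 1.00 CPM in PC-3 and 909 CPM in LNCaP monoculture. In the LNCaP coculture it was 1.51-fold higher (1.48 to 1.54), and none of 12 measured antigens passed 2-fold (median 0.15). None of 11 passed it in the PC-3 coculture (median 0.30).

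Genes outside the family were ranked by how closely their log2 CPM, centred on the mean of the 4 libraries, followed each member, among 13004 genes. Nearest to STEAP1 was ZMYND12, with a root mean square difference of 0.026 log2, at 0.439 CPM in the PC-3 monoculture, 0.447 in the PC-3 coculture, 10.5 in the LNCaP monoculture and 11.5 in the LNCaP coculture, followed by VPS35L (0.043) and LRRC26 (0.045). RETREG1, a receptor for autophagy of the endoplasmic reticulum, was nearest to STEAP2 (0.085), then POTEI (0.090), which belongs to a family of near-identical copies, and the potassium channel gene KCNQ1 (0.106). The ribonuclease gene ANG (0.016) was nearest to STEAP3, at 31.7, 32.6, 8.74 and 9.61 CPM in the same order, then MPZL2 (0.023) and CPT1C (0.025). Nearest to STEAP4 were the read-through gene INO80B-WBP1 (0.060), the lipase gene LIPH (0.162) and CTAGE1 (0.222). With 4 libraries and this many genes, such likeness is a description.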

How the data were processed

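Values in the deposited table are estimated counts, 1 row per gene symbol, and library totals differ. The submitters' processing notes name STAR, Partek, FastQC and hg38; roles, versions and annotation are not given in the sources used here. Libraries were made with a TruSeq RNA v2 kit, per the labels, which does not mark the strand. Counts were rounded, scaled with TMM (edgeR 4.0.16, R 4.3.3) and given as CPM. Intervals were computed with scipy 1.17.1 and pandas 2.3.3 in Python 3.11.15.

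Folds are ratios of scaled counts with exact conditional binomial 95% intervals, and differences between coculture log2 folds have delta-method intervals. Both cover counting error only, since each group has 1 library. PCR copies of a molecule were not told apart, so the intervals may be too narrow even for counting error. Log2 folds used a prior count of 2. A gene was measured in a comparison where either library reached 1 CPM, and higher or lower means at least 2-fold by log2 fold. On simulated counts, 100% of the genes changed 4-fold were recovered in both coculture comparisons (200 changed of 17791). The simulation held counting error only and no spread between tissues. Its changed genes were drawn from well counted genes, a range that leaves out STEAP4 with its 8 counts in the LNCaP monoculture. The recovery therefore checks the arithmetic and not the calls in these tissues.

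Positions came from RefSeq (17147 symbols matched) and transcript lengths from GENCODE v29 (16635 matched), because the RefSeq table holds gene spans and not transcript lengths. The 75-base window is a choice, since read length was not known. Members and lists were chosen with earlier results of these data known. Named genes were the members, set genes such as KLK3 and TFRC, up to 4 abundant or 2-fold different genes per list, and the 3 nearest patterns per member among genes reaching 5 CPM. Some list members and 1 list are not reported here. Neighbours are the 5 nearest genes on each side among the RefSeq genes that the count table also lists. CXCL8, IL1B, SOCS3 and other genes named only in counts were named after their values were seen. Alternatives were DESeq2 size factors (DESeq2 1.42.0), total count, upper quartile and epithelial scaling, unrounded counts, prior counts, CPM minimums and transcript lengths.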

Additional observations from a re-analysis of the deposited data

Results flagged for a closer look

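Some genes had coculture log2 folds on opposite sides of 0 in the 2 lines, with 1 library per group, so the difference was not tested. Given as log2 fold in LNCaP minus log2 fold in PC-3, STEAP2 differed by 0.36 (0.33 and -0.03), where the PC-3 counting interval includes no difference. The prostate protease gene TMPRSS2 differed by 0.59 (0.42 and -0.17), and GDF15, a secreted stress factor, by 0.45 (0.40 and -0.05). The ferritin chains differed by 0.53 for FTH1 (0.05 and -0.48) and 0.58 for FTL (0.10 and -0.48), and the metallothionein gene MT2A by 0.98 (0.75 and -0.22). The interleukin receptor gene IL6R had the reverse order, with a difference of -0.65 (-0.23 and 0.43).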

How the results depend on the processing

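Under DESeq2 size factors, total count scaling, upper quartile scaling and unrounded counts, 63 of 64 member folds stayed within the counting interval of the reported value. The exception was STEAP2 in the LNCaP coculture, 1.29 with DESeq2 size factors. Scaled to epithelial markers it was 1.10, and STEAP1 became 0.968. All 32 log2 folds under other prior counts and all 24 differences between lines stayed within their intervals, although that of STEAP3 turned to -0.05 with epithelial scaling, and 262 of 280 list counts stayed within 1.5 times. With a minimum of 5 CPM, STEAP4 was not measured, leaving 0 members higher in the LNCaP coculture and 1 lower in LNCaP monoculture. That minimum gave 240 genes higher and 154 lower in the LNCaP coculture, against 1286 and 753 with no minimum, and 87 and 21 in the PC-3 coculture, against 906 and 440. The length-scaled ratio of STEAP2 to STEAP1 was 0.380, 0.790, 0.364 and 0.902 for PC-3 and LNCaP grown alone and then for their cocultures. It turned to 2.04, 4.23, 1.95 and 4.83 without length scaling and to 1.18, 2.46, 1.13 and 2.81 with median transcript lengths, a setting chosen after seeing the data. The ratio of STEAP2 to STEAP3 was 0.282, 38.3, 0.261 and 43.9 in the same order, 0.466, 63.2, 0.430 and 72.4 without length scaling, 0.244, 33.1, 0.225 and 37.9 with merged exons, and 0.620, 84.1, 0.572 and 96.4 with median lengths. No library could be left out, and no paired analysis was possible because each group has 1 library. Depth limits STEAP4 most, with 8 to 45 counts per library.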
